A study of Mus musculus with 3 samples.

Results

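Type 2 conventional dendritic cells are antigen-presenting cells that take up material in the tissue, load peptides onto MHC class II molecules and show them to CD4+ T cells. In the mouse lung they depend on the transcription factor Irf4, carry CD11b and Sirpa, and many carry the lectins Cd209a, Mgl2 and Clec10a. When they mature they turn on Ccr7 and leave for the draining lymph node, so that the cells found in the lung at one moment are those that have not left. LPS, the endotoxin of Gram-negative bacteria, is sensed by Tlr4 and starts NF-kB and interferon programmes in myeloid cells. Reg3g is a secreted lectin of mucosal surfaces that binds Gram-positive bacteria, and Extl3 has been reported as a receptor for Reg family proteins.

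The cells were 437 of 31681 cells kept from 3 droplet single-cell RNA libraries of wild type C57BL/6 mouse lung, made with 10x GEM-X 3′ chemistry. The LPS + Reg3g group had received LPS at 4 mg/kg together with 6 µg of Reg3g, the LPS group LPS at 4 mg/kg alone, and the PBS group PBS. Each was instilled into the trachea in 50 µL, and lungs were taken after 24 h. Each group was 1 library of pooled cells from 3 mice, so the spread between mice could not be measured, no test between groups was possible, and the intervals given are 95% intervals of counting error. The age and sex of the mice were not given in the sources used here. Viable CD45+ Ly6G- F4/80+ cells with CD11b or CD11c had been sorted as lung macrophages, so a share below is a share of sorted cells and not of the lung, and dendritic cells with little F4/80 may have been lost at the gate.

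The members were chosen by measured values, the UMIs (distinct transcripts counted) of marker genes in each cell. A cell needed 500 genes and 1000 UMIs or more, with no more than 15% of them mitochondrial. It also needed a UMI for at least 2 of Cd209a, Mgl2, Clec10a and Klrd1, and at least 20 summed UMIs of the MHC class II genes H2-Aa, H2-Eb1 and Cd74. Cells with more than 1 of the type 1 genes Xcr1, Clec9a, Itgae and Cadm1 were left out, as were cells with more than 1 of the interstitial macrophage genes Folr2, Cd163, Col14a1, Gas6 and Vcam1. Cells with 3 or more of the migratory genes Ccr7, Fscn1, Cacnb3, Il4i1, Apol7c and Nudt17, or with over 2 summed UMIs of the alveolar macrophage genes Krt79, Plet1 and Slc39a2, were left out too. Because Ccr7 and its companions were part of the rule, a type 2 cell that had matured to the migratory state was not counted here.

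The members' summed transcripts came to 36917 UMIs in 6 LPS + Reg3g cells, 317365 UMIs in 61 LPS cells and 2366332 UMIs in 370 PBS cells. Their median depth was 5595.5, 4893 and 5924 UMIs per cell in the LPS + Reg3g, LPS and PBS libraries. The whole libraries held 60942042, 70474636 and 52354207 UMIs in 10213, 15015 and 8475 barcodes. Pairs of libraries shared 28 to 37 barcodes, and the barcodes of 3 PBS members also stood in the LPS library, where none of them was a member. Levels are given in CPM, the UMIs of a gene per 1000000 UMIs of the summed members, and a gene is called higher or lower where its ratio between 2 libraries was at least 2-fold.

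Type 2 dendritic cells made up 0.0621% of LPS + Reg3g cells (6 of 9669, interval 0.0228 to 0.135), 0.439% of LPS cells (61 of 13880, interval 0.336 to 0.564) and 4.55% of PBS cells (370 of 8132, interval 4.11 to 5.03). The intervals of the 3 libraries did not overlap. The share was 10.4-fold lower with LPS than with PBS (interval 7.88 to 13.8), and 7.08-fold lower with LPS + Reg3g than with LPS (interval 3.07 to 20.1). The order LPS + Reg3g, LPS, PBS from low to high was also that of type 1 dendritic cells, which made up 0.414%, 1.28% and 7.07%. It was not that of migratory dendritic cells, which made up 0.652%, 1.53% and 1.01%. With the markers of the rule, the ratio of LPS to PBS was lower for type 2 than for type 1 cells. The type 1 share was 5.54-fold lower (interval 4.68 to 6.60), an interval apart from that of type 2 cells. This difference depended on the markers. With 4 other genes, described below, the share of the cells chosen was 3.83-fold lower (interval 3.07 to 4.79). The fold was smaller than that of type 1 cells, but the intervals overlapped and the order was not resolved. The share of interstitial macrophages was 9.47-fold lower with LPS than with PBS (interval 5.98 to 15.7).

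**Figure D1:**
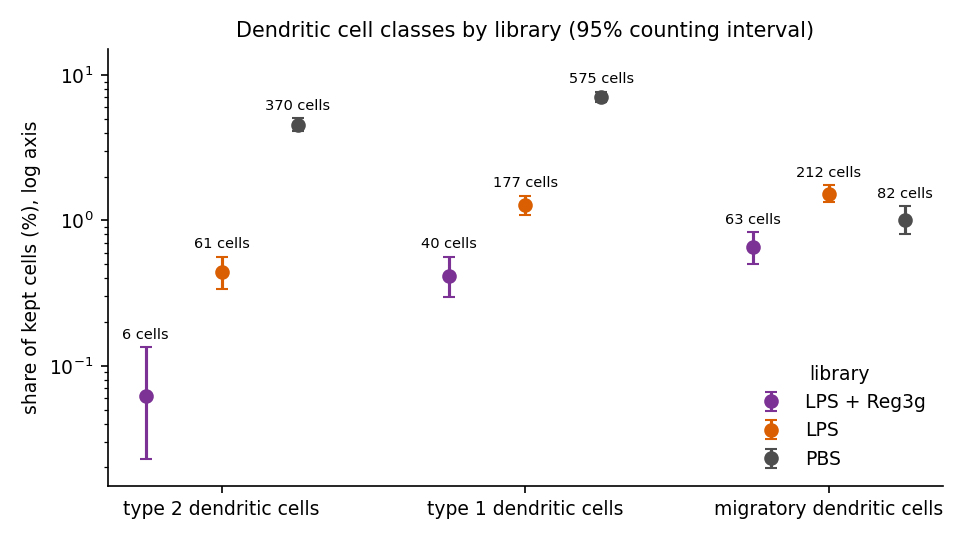
Share of kept cells in percent, on a log axis, of type 2, type 1 and migratory dendritic cells in the LPS + Reg3g, LPS and PBS libraries. Points are single libraries and bars 95% counting intervals; type 2 cells had 6, 61 and 370 members and intervals that did not overlap, and migratory cells had their highest share with LPS.

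Most of the difference already stood at the first condition of the rule. At least 2 of the 4 lectin-type markers were present in 12 LPS + Reg3g cells, 85 LPS cells and 568 PBS cells, before any other condition was applied. Among all kept cells a Cd209a UMI was present in 0.0517%, 0.223% and 4.82% of LPS + Reg3g, LPS and PBS cells, and a Mgl2 UMI in 0.434%, 1.03% and 10.6%. Clec10a differed less, with 2.58%, 2.82% and 7.10% of LPS + Reg3g, LPS and PBS cells, and Klrd1, a lectin-like receptor best known from NK cells, had 0.869%, 1.71% and 8.53%. These 4 genes chose the members, so their levels are a description. The gate may bear on the shares as well: Adgre1, which encodes F4/80, had 54.2, 25.2 and 68.9 CPM in LPS + Reg3g, LPS and PBS members, and its part in the shares was not tested.

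Most LPS members stood at the threshold of 2 markers. Exactly 2 of the 4 markers were present in 52 of 61 LPS members and in 183 of 370 PBS members, 3 markers in 9 and 143, and all 4 in 0 LPS members and 44 PBS members. Among members of LPS + Reg3g, 4 cells had 2 markers and 2 cells had all 4. Just outside the rule, 40 LPS + Reg3g, 114 LPS and 315 PBS cells met every other condition with exactly 1 marker. Of these, 12, 44 and 37 had UMIs for at least 2 of H2-DMb2, H2-Oa, Flt3 and Zbtb46, genes that the rule did not use. That is 30.0% of the LPS + Reg3g, 38.6% of the LPS and 11.7% of the PBS cells at the edge. Flt3 and Zbtb46 are shared by conventional dendritic cells and the others belong to the MHC class II pathway, so none marks type 2 cells alone.

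Because the markers themselves may differ in level between the libraries, the count was repeated without them, by an alternative chosen after the data were seen. With at least 2 of H2-DMb2, H2-Oa, Flt3 and Zbtb46 in place of the 4 lectin-type markers, there were 26 LPS + Reg3g, 119 LPS and 267 PBS cells, or 0.269%, 0.857% and 3.28%. Of these cells 10, 41 and 48 had none of the lectin-type markers, and no condition left out B cells. The count thus cannot be taken as one of type 2 cells alone. The order of the libraries was that found with the rule. The distances were shorter, 3.83-fold lower with LPS than with PBS (interval 3.07 to 4.79) and 3.19-fold lower with LPS + Reg3g than with LPS (interval 2.07 to 5.08). H2-DMb2 UMIs were present in 48 of 61 LPS and 207 of 370 PBS members, and the part of this in the folds was not tested. How much of the lower share came from fewer cells and how much from fewer marker transcripts per cell cannot be told apart with these markers alone.

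Next, 2 markers that played no part in the choice of cells were read. Both belong to the MHC class II pathway, and the rule required class II transcripts. A comparison with T cells therefore cannot tell type 2 cells from other cells rich in class II. Over type 1 cells, the measured class II genes outside the rule had median log2 ratios of 0.19, 0.26 and 0.56 in LPS + Reg3g, LPS and PBS. H2-DMb2, a beta chain of the H2-DM peptide exchange factor, had 515 CPM in LPS + Reg3g, 466 CPM in LPS and 269 CPM in PBS members. H2-Oa, the alpha chain of the H2-O molecule that restrains H2-DM, had 244, 126 and 143 CPM in the same order. Shares of cells were compared after thinning every cell to 2000 UMIs, with T cells as a class that should hold neither gene. H2-DMb2 was then found in 50.0% of LPS + Reg3g, 52.5% of LPS and 32.2% of PBS members, against 0% of T cells in each library (0 of 36, 0 of 41 and 0 of 44 thinned T cells). H2-Oa was found in 66.7%, 28.8% and 26.0% of LPS + Reg3g, LPS and PBS members and in 2.78%, 0% and 2.27% of T cells. In the LPS and PBS libraries the members' intervals for both genes lay above the T cell shares, which is the level that free RNA in the droplets can give.

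Genes of type 2 identity outside the rule, a list of 20, summed to 3115 CPM in LPS + Reg3g, 3866 CPM in LPS and 3437 CPM in PBS members. Type 1 dendritic cells of the same libraries had 1212, 1287 and 1571 CPM for these genes, and migratory dendritic cells 2303, 2297 and 1953 CPM. Of the genes of the list with at least 20 CPM, 5 of 10 in the LPS + Reg3g library, 12 of 18 in the LPS library and 11 of 15 in the PBS library were at least 2-fold higher in members than in type 1 cells, and 1, 0 and 1 were lower. Over all genes from 20 CPM the shares higher were 26.2%, 8.24% and 7.29%. In the LPS + Reg3g library genes without a UMI in members were set at 3 counts, or 81.3 CPM. Both the 26.2% and the 5 of 10 genes of the list can therefore include unseen genes. Of the list, 5 genes had no UMI in the LPS + Reg3g members: Irf4, Clec4a4, Ccr6, Ffar2 and Cd7. The list was not particular to dendritic cells, since monocytes had 2494, 2451 and 3341 CPM for it, and neutrophils, in the 2 libraries that held them, 4556 CPM with LPS + Reg3g and 3199 CPM with LPS. Over B cells of the LPS library 5 of its 18 genes were higher in members and 3 lower, with a median log2 ratio of -0.14. Against interstitial macrophages, the 10 macrophage and monocyte-derived markers were at least 2-fold lower in members for 7 genes in the LPS + Reg3g library and for 10 genes in each of the LPS and PBS libraries, where 11.1%, 23.4% and 19.7% of all genes were lower.

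A part of the members also carried macrophage or monocyte transcripts. UMIs for at least 2 of the complement genes C1qa, C1qb and C1qc were present in 2 of 6 LPS + Reg3g, 6 of 61 LPS and 54 of 370 PBS members. At least 3 of the monocyte genes Ly6c2, Ccr2, F13a1, Vcan and Plac8 were present in 2, 4 and 52 members. Either sign was found in 33.3% of LPS + Reg3g, 14.8% of LPS and 27.8% of PBS members. In the PBS library these 103 cells differed from the other 267. They had 68.9 CPM of H2-DMb2 against 343 CPM in the other 267, and 8351 CPM of the lysozyme gene Lyz2 against 1623 CPM. Apoe, the apolipoprotein of macrophages, had 1673 CPM in them against 50.4 CPM in the others. Their markers outside the rule thus go against the label more than those of the other 267 cells. The macrophage list, and a list that holds Lyz2 and Ccr2, are given with and without the C1q-positive members below. The monocyte list is not given without these cells.

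Other admixtures were smaller. Genes of cycling cells were present in 0 of 6, 8 of 61 and 57 of 370 members of LPS + Reg3g, LPS and PBS, and a T or B cell gene in 0, 3 and 16 members. T and NK cell markers summed to 0, 3.15 and 45.2 CPM in LPS + Reg3g, LPS and PBS members. B cell markers summed to 0, 53.6 and 8.03 CPM, and basophil and mast cell markers were at 0 in all 3 libraries. The plasmacytoid markers Siglech and Ly6d had 12 and 34 UMIs in LPS members, in 2 cells each. The highest doublet scores of each library took in 0, 0 and 4 members of LPS + Reg3g, LPS and PBS.

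The 6 LPS + Reg3g members fell into 2 kinds. The deepest cells, with 8900 and 8029 UMIs, had no UMI of H2-DMb2 or H2-Oa and had 123 and 46 UMIs of Lyz2, 10 and 4 of C1qa, and 36 and 52 of the acute-phase gene Saa3. The remaining 4 cells, with 4373 to 5762 UMIs, had 4 to 5 UMIs of H2-DMb2, 1 to 4 of H2-Oa, 0 to 3 of Lyz2 and none of C1qa. Their summed MHC class II UMIs were 247 to 427, against 24 and 113 in the 2 deepest cells. The data therefore go against the label for 2 of the 6 cells, and without these 2 the share in the LPS + Reg3g library was 0.0414%.

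In the LPS library 151 of 1692 genes that reached 100 CPM in either library (8.92%) were called higher than in the PBS library, and 140 (8.27%) were called lower. The median log2 ratio over all of them was 0.14. The split between directions depended on the scaling: 97 genes were higher and 176 lower when counts were scaled by trimmed means of M values (TMM), which lowered the median of all genes by 0.13 on the log2 scale. From 20 CPM, the floor used for gene lists, 10.1% of 5733 genes were higher and 11.5% were lower. The counts given below for gene lists in LPS over PBS are to be read beside these shares.

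**Figure D2:**
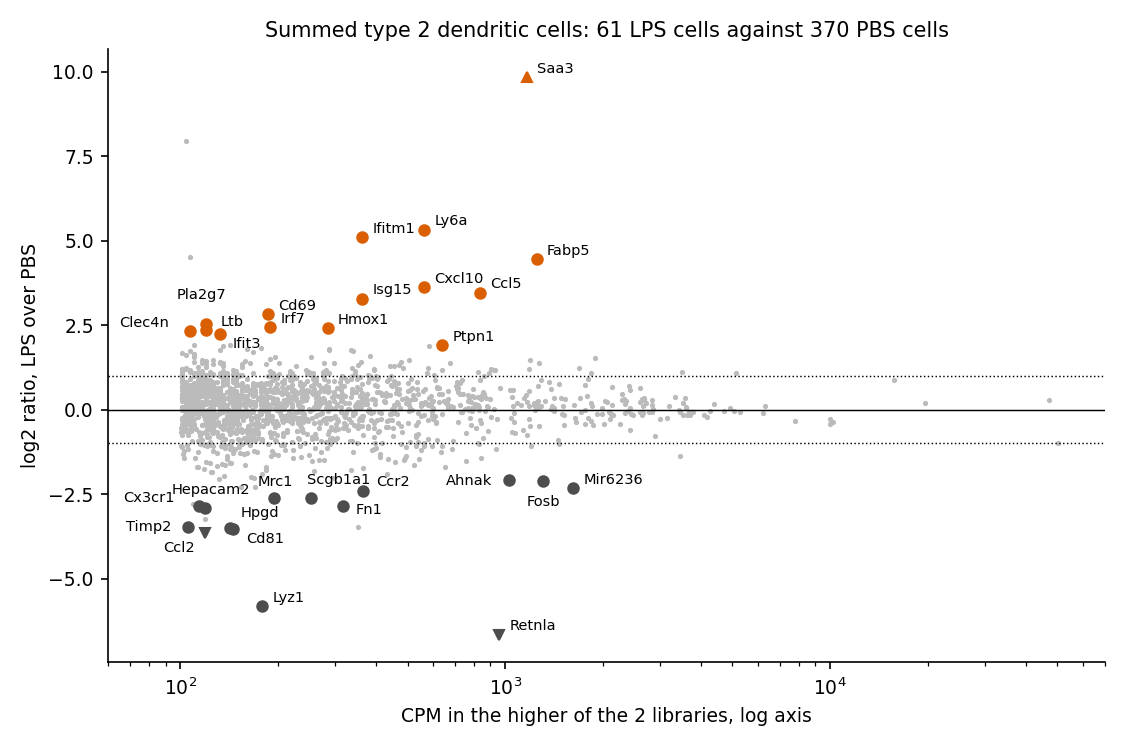
Log2 ratio of each gene in the summed type 2 dendritic cells, LPS over PBS, against the CPM of the higher library on a log axis. Each point is a gene that reached 100 CPM, dotted lines mark 2-fold, triangles are bounds for genes at 0 in 1 library, and the 15 higher and 15 lower named genes are labelled.

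Interferon-stimulated genes formed the list with the largest number of genes called higher with LPS. Of 38 genes on this list 31 were measured from 20 CPM, with 18 called higher and 0 called lower, and their median log2 ratio was 1.61, where that of all genes from 20 CPM was 0.05. By share a shorter list stood above it: of 7 measured genes reported in inflammatory type 2 cells 6 were called higher, 0 were called lower, the median was 1.28, and this list summed to 840 CPM in LPS + Reg3g, 1969 CPM in LPS and 323 CPM in PBS members. It shares Isg15 with the interferon list. The interferon list summed to 1273 CPM in LPS + Reg3g, 2924 CPM in LPS and 1107 CPM in PBS members. Isg15, a ubiquitin-like modifier, had 27.1, 362 and 37.2 CPM in LPS + Reg3g, LPS and PBS members, a log2 ratio of 3.28 of LPS over PBS (interval 2.87 to 3.70). Irf7, the transcription factor that amplifies type I interferon, had 135, 189 and 34.7 CPM and a log2 ratio of 2.45 (interval 1.94 to 2.95). Ifit3, which restrains viral RNA, had 0, 132 and 27.9 CPM, with LPS UMIs in 11 of 61 cells. Bst2, which tethers budding virus and also marks plasmacytoid cells, had 244, 504 and 184 CPM.

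The same interferon list was also high in cells of other kinds in the LPS library. It summed to 2686 CPM in T cells, 2620 CPM in type 1 and 2553 CPM in migratory dendritic cells, and 2951 CPM in monocytes, against 2924 CPM in type 2 members. The level in members was thus close to that of several other cell classes, while alveolar macrophages had 1457 CPM. T cells are themselves known to respond to interferon, so their share is an upper limit for free RNA rather than a measure of it. Among single members, 14 of 61 LPS cells and 28 of 370 PBS cells had at least 3 of 8 chosen interferon genes, and 0 of 6 LPS + Reg3g cells did. After thinning these shares were 13.6% of LPS members (interval 6.04 to 25.0) and 2.19% of PBS members (interval 0.948 to 4.26).

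The promoters of 4 interferon-related genes are shown because interferon-stimulated genes are known to be switched on through a short element, searched here as GAAA, any 2 bases and GAAA, or on the other strand TTTC, any 2 bases and TTTC. Sequences are from RefSeq on GRCm38.p6 and run 5′ to 3′ on the gene's strand, from 250 bases before to 50 after the annotated start. Capitals mark the matches, and overlapping matches were counted separately.
Isg15 (chr4:156200769-156201068, - strand): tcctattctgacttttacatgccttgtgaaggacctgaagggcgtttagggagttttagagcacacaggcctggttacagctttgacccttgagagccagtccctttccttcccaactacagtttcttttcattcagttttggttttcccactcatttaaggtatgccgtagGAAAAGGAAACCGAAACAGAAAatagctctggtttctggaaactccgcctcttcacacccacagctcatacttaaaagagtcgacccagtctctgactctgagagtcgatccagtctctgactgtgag
Ifit3 (chr19:34583279-34583578, + strand): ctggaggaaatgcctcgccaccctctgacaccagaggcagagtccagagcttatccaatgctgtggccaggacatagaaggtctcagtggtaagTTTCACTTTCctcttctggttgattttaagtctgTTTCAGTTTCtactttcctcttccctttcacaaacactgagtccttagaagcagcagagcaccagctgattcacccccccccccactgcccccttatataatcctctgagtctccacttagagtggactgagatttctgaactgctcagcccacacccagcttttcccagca
Cxcl10 (chr5:92348840-92349139, - strand): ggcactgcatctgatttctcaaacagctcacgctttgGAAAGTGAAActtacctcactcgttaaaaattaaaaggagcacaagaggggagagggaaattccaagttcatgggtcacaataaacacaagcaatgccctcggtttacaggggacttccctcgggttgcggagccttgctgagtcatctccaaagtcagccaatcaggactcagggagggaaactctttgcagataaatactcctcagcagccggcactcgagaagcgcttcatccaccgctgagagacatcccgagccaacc
Ifitm1 (chr7:140967826-140968125, + strand): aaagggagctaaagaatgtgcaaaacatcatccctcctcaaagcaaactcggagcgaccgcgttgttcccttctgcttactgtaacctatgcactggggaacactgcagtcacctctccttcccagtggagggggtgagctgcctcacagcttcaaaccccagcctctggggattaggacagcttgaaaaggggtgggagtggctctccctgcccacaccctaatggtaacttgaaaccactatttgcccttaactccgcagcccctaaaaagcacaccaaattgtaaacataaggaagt
Isg15 held 3 overlapping matches, the first at -78 from the start, Ifit3 held 2 matches from -156, Cxcl10 held 1 at -213, and Ifitm1, an interferon-induced membrane protein, held none. A match was present in 1131 of 32851 promoters of this length (3.44%). It was present in 19 of the 36 promoters found for the interferon list (52.8%), or in 18 of its 29 genes with a promoter. These matches describe sequence and say nothing of binding in these cells.

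Ly6a and Ifitm1 were the only ones of the 15 named higher genes whose share of LPS members had an interval above the T cell share. Ly6a, the stem cell antigen Sca-1 that interferon induces, had 190, 561 and 13.9 CPM in LPS + Reg3g, LPS and PBS members, a log2 ratio of LPS over PBS of 5.33 (interval 4.79 to 5.91). It was present in 40 of 61 LPS and 21 of 370 PBS cells. Ifitm1 had 54.2, 362 and 10.6 CPM and a log2 ratio of 5.10 (interval 4.47 to 5.79), with UMIs in 25 LPS and 24 PBS cells. After thinning, Ly6a was found in 40.7% of LPS members (interval 28.1 to 54.3) and 19.5% of LPS T cells (interval 8.82 to 34.9). Ifitm1 was found in 27.1% of LPS members (interval 16.4 to 40.3) and 2.44% of LPS T cells (interval 0.0617 to 12.9). The intervals of members and T cells thus overlapped for Ly6a and were apart for Ifitm1. T cells are known to carry Ly6a themselves. Of the LPS T cells, 53 of 94 were too shallow for this comparison, and their median depth was 1751.5 UMIs against 4893 in members. In LPS members that carried macrophage or monocyte genes, Ifitm1 was at 13.4 CPM, against 469 CPM in the other 52 cells.

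Of the 15 named genes that were higher with LPS, 6 had a larger share of cells in members than in T cells of the LPS library and 9 did not. Saa3 had 369 UMIs in 28 of 61 LPS members and 0 UMIs in 370 PBS members, a log2 ratio of at least 9.84. It was found in 27.1% of thinned LPS members and 56.1% of thinned T cells, a share not above that of T cells. Of its UMIs 263 lay in 3 cells and 155 in 1 cell, and the part of free RNA in them was not tested. The fatty acid carrier Fabp5 (1248 CPM with LPS, 56.6 with PBS) likewise was found in 47.5% of members and 53.7% of T cells, and 242 of its 396 LPS UMIs were in 1 cell. The haem-degrading enzyme Hmox1 had 74 of its 90 LPS UMIs in 1 cell. Its log2 ratio of 2.40 became 0.25 without members positive for C1q genes. Pla2g7, which inactivates platelet-activating factor, and the phosphatase Ptpn1 were at or below the T cell share as well.

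**Figure D3:**
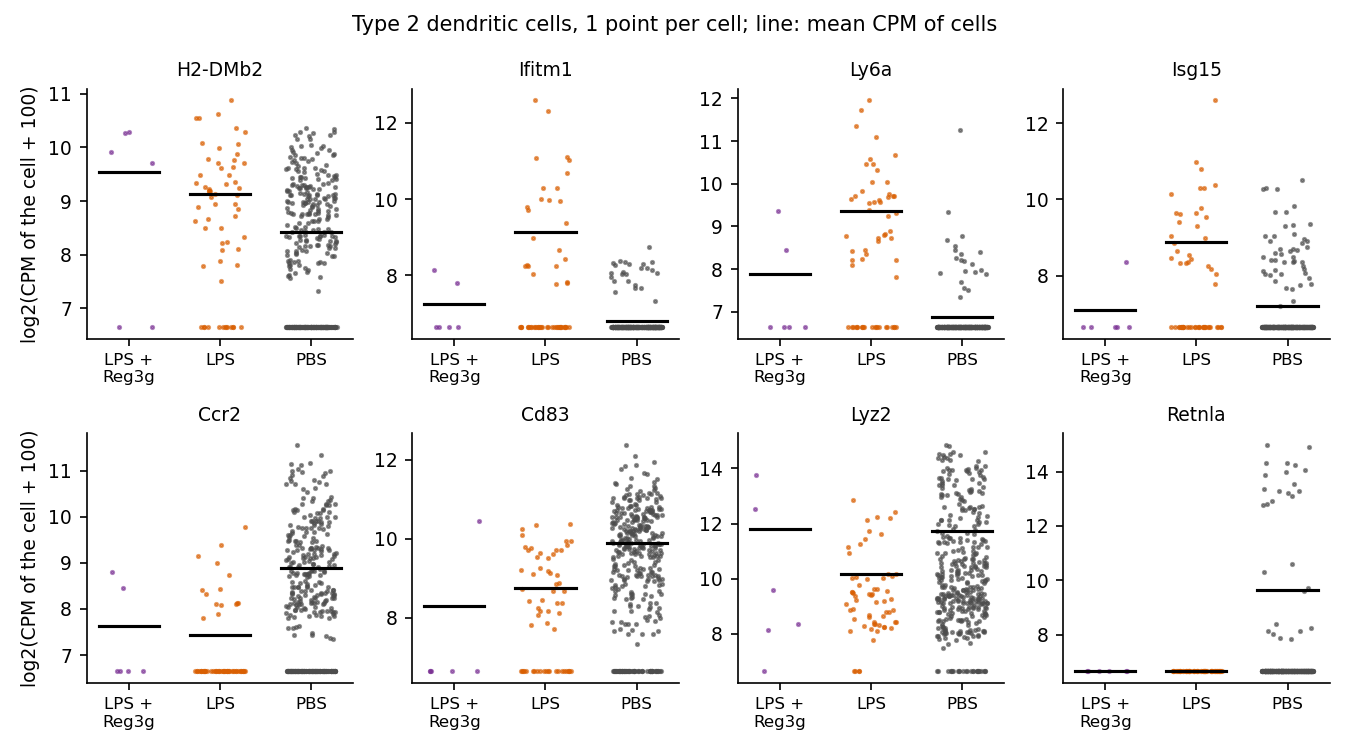
Level of 8 genes in each type 2 dendritic cell of the LPS + Reg3g, LPS and PBS libraries, as log2 of the cell's CPM plus 100. Points are 6, 61 and 370 cells, the black line is the mean CPM of the cells on the same scale, and cells at the lowest level have no UMI; Ifitm1 and Ly6a were frequent in LPS cells, Ccr2 and Cd83 in PBS cells, and Retnla had UMIs in PBS cells and in no LPS + Reg3g or LPS cell.

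Chemokines made by dendritic cells went in both directions. Of 16 measured, 7 were called higher and 3 called lower, with a median log2 ratio of 0.59 of LPS over PBS. Over all genes from 20 CPM 10.1% were higher and 11.5% lower. Cxcl10, which draws Cxcr3-bearing T cells, had 0, 561 and 45.2 CPM in LPS + Reg3g, LPS and PBS members, with LPS UMIs in 17 of 61 cells and a log2 ratio of 3.63 (interval 3.28 to 3.99). After thinning it was found in 20.3% of LPS members and 14.6% of LPS T cells. Ccl5, a chemokine that draws T cells and monocytes, had 135, 835 and 75.6 CPM, but after thinning it was found in 33.9% of LPS members and 51.2% of T cells, which make it themselves. Ccl17, which draws Ccr4-bearing T cells and is typical of type 2 cells, had 1327, 1840.1 and 863 CPM and a log2 ratio of 1.09 (interval 0.96 to 1.23). Its companion Ccl22 had 0, 113 and 220 CPM and a log2 ratio of -0.95, within 2-fold. Ccl4 was higher with LPS at 1178 CPM with LPS and 515 CPM with PBS. The monocyte attractant Ccl2 had 0 UMIs in LPS members and 281 UMIs in 80 PBS cells, a log2 ratio of at most -3.65, and 11 UMIs in 1 LPS + Reg3g cell. Its neighbours Ccl7 and Ccl12, also monocyte attractants, were the other lower chemokines, with 0 and 6.30 CPM with LPS and 48.2 and 34.2 CPM with PBS.

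Cytokine genes were dominated by Il1b, which had 1381, 3498 and 1606 CPM in LPS + Reg3g, LPS and PBS members. Its log2 ratio of LPS over PBS was 1.12 (interval 1.03 to 1.22). Il1rn, the soluble antagonist of the same receptor, was higher with LPS at a log2 ratio of 1.29, and Il18 was lower at -1.87 on 3 LPS cells. Of 20 cytokine genes 8 were measured, and 2 were higher and 1 lower, beside 10.1% and 11.5% of all genes from 20 CPM. The T cell polarising cytokines Il12a and Il27 were at 0 CPM in all 3 libraries, and Il12b, Il23a, Il6 and Il10 stayed below 20 CPM in the LPS and PBS members.

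Most genes of antigen presentation were within 2-fold. Of 14 MHC class II genes outside the rule 0 were called higher and 2 lower with LPS, and the median log2 ratio was -0.23. Among all genes from 20 CPM 10.1% were higher and 11.5% lower. H2-Ab1, the beta chain of the classical class II molecule, had 8289, 8129 and 9955 CPM in LPS + Reg3g, LPS and PBS members. Cd83, which keeps class II molecules on the surface, had 190, 315 and 844 CPM and a log2 ratio of -1.42 (interval -1.73 to -1.13). H2-DMb2 was the class II gene with the highest LPS over PBS ratio among those with at least 100 CPM, at 0.79 (interval 0.52 to 1.05), within 2-fold. The class I list had a median of 0.39 over 19 genes, with the immunoproteasome subunit Psmb8 higher at log2 1.18 and the peptide transporter chain Tap2 lower at -1.46.

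Maturation markers did not move together. Of 12 measured co-stimulatory and checkpoint genes 3 were called higher with LPS and 0 lower. The shares over all genes from 20 CPM, here and for the migratory list, were 10.1% higher and 11.5% lower. Cd274, which encodes PD-L1, had 0, 41.0 and 5.92 CPM in LPS + Reg3g, LPS and PBS members and a log2 ratio of 2.79 (interval 1.58 to 3.99). Cd40 had a log2 ratio of 1.28 and the Havcr2 ligand Lgals9 one of 1.14. Cd86, the best known co-stimulatory ligand, had 54.2, 91.4 and 127 CPM and a log2 ratio of -0.48 whose interval reached 0.07, and Cd80 was at -0.52. Migratory markers outside the rule gave 1 higher gene and 2 lower genes of 11. Cells with 3 or more of the migratory genes were outside the members by definition, so this list describes the cells that were left.

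Genes of sensing and tuning had a mixed pattern. Of 15 C-type lectins outside the rule 6 were called higher and 4 lower, beside 10.1% and 11.5% of all genes from 20 CPM. Clec4n and Clec4e, Dectin-2 and Mincle, receptors for fungal and mycobacterial ligands, had 107 and 75.6 CPM with LPS against 21.6 and 12.3 CPM with PBS. Clec4b1, by contrast, had 47.3 CPM with LPS and 178 CPM with PBS, a log2 ratio of -1.92 (interval -2.77 to -1.18). Among pattern recognition receptors, Tlr2, which senses bacterial lipoproteins, was lower at a log2 ratio of -1.22, and the RNA sensors Ddx58 and Ifih1 were higher at 1.63 and 1.13. Tlr4 itself had 3.15 CPM with LPS and 6.34 CPM with PBS, too low to compare. Cd69, an early activation lectin that holds cells in tissue, had 186 CPM with LPS and 26.2 CPM with PBS, at shares of 20.3% of thinned members and 19.5% of T cells.

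NF-kB and LPS-inducible genes included 8 higher and 5 lower of 29, with a median log2 ratio of 0.09. Beside this list and the immediate early list below, 10.1% of all genes from 20 CPM were higher and 11.5% lower. The higher genes included the manganese superoxide dismutase Sod2, with 287 CPM with LPS and 83.3 CPM with PBS. The lower genes included Nfkb1, which encodes p50, at -1.26, Nfkbiz, an atypical inhibitor, at -1.07, and the survival gene Birc3 at -1.23. Tnip3, an A20-binding inhibitor that was high in type 2 cells with PBS, had 108, 243 and 551 CPM in LPS + Reg3g, LPS and PBS members and a log2 ratio of -1.18 (interval -1.53 to -0.85). Immediate early genes, which tissue digestion is known to induce, were called lower for 6 of 18 and higher for 1, with a median of -0.61, and the part of digestion in this was not tested. Fosb was the lowest of them, with 299 CPM with LPS and 1309 CPM with PBS.

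Transcription factors were lower more often than higher, at 10 against 3 of 36, with a median of -0.39. Of all genes from 20 CPM 11.5% were lower and 10.1% higher. The activity-induced receptors Nr4a1, Nr4a2 and Nr4a3 had log2 ratios of -1.71, -1.50 and -1.65. Klf4, which type 2 cells need for T helper 2 responses, had 352, 154 and 456 CPM in LPS + Reg3g, LPS and PBS members, a log2 ratio of -1.56 (interval -2.01 to -1.15). Rbpj and Notch2, the nuclear partner and the receptor of the Notch pathway that type 2 cells use, had log2 ratios of -1.43 and -1.20. Higher were Spi1, the myeloid master regulator, at 1.09 and Cebpb at 1.16. Irf8 was also called higher, at 1.13, but its 60 LPS UMIs lay in 12 of 61 cells and 46 of them in 3 cells, while it was present in 91 of 370 PBS cells. Irf4 had 0, 91.4 and 62.5 CPM and a log2 ratio of 0.55 whose interval (-0.08 to 1.13) included 0. Zbtb46, shared by conventional dendritic cells, was at 0.44 on 12 LPS cells.

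Receptors for movement were lower for 3 and higher for 2 of 14, with a median of -0.63. The shares over all genes from 20 CPM were 11.5% lower and 10.1% higher. Ccr2, the receptor for Ccl2 that brings cells from blood, had 108, 69.3 and 366 CPM in LPS + Reg3g, LPS and PBS members, a log2 ratio of -2.40 (interval -3.08 to -1.79). After thinning it was found in 10.2% of LPS members, against 7.32% of T cells, and in 42.3% of PBS members, against 11.4% of T cells. Cx3cr1, the fractalkine receptor, had 27.1, 15.8 and 114 CPM, and Cxcr4 had 54.2, 31.5 and 153 CPM. Gpr183, an oxysterol receptor that places type 2 cells in lymphoid tissue, was higher with 183 CPM with LPS and 71.0 CPM with PBS, a log2 ratio of 1.36 (interval 0.91 to 1.80). Ccr2 was 728 CPM in the PBS members with macrophage or monocyte genes and 232 CPM in the other PBS members. Il1rl1, the IL-33 receptor, had 6.30 CPM with LPS and 91.3 CPM with PBS, a log2 ratio of -3.86 (interval -6.91 to -1.99).

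The macrophage and monocyte-derived list had 0 genes called higher and 5 called lower of 8 and a median of -1.31, and the Esam-low list, which holds Lyz2, Ccr2 and Cx3cr1, had 1 higher and 5 lower of 8. The median of the Esam-low list was -1.24, and of all genes from 20 CPM 10.1% were higher and 11.5% lower. Without members positive for C1q genes the macrophage median was 0.00734 over the 4 genes still measured, where the cells left out were chosen by genes of this list, and the Esam-low median was -1.28. Monocyte markers had 5 higher and 3 lower of 9, with Plac8 at 1463, 1891 and 658 CPM in LPS + Reg3g, LPS and PBS members and Fn1, fibronectin, at 135, 44.1 and 316 CPM. Retnla, an alternative activation gene of macrophages, had 0 UMIs in LPS members and 2261 UMIs in 28 of 370 PBS cells. Of these 28 cells 10 carried C1q genes and 21 carried H2-DMb2 or H2-Oa. Among all 370 PBS members 54 (14.6%) carried C1q genes and 247 (66.8%) carried H2-DMb2 or H2-Oa. The 3 cells highest in Retnla held 36.0% of its UMIs. Mrc1, the mannose receptor, had 31.5 CPM with LPS and 194 CPM with PBS, at a log2 ratio of -2.63. The secretoglobin Scgb1a1 of airway club cells was named among the lower genes, at 41.0 CPM with LPS and 252 CPM with PBS. It had 239.5 CPM in T cells of the PBS library, a level like that of members, and the part of free RNA in it was not tested.

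Further genes named among the lower ones were found in differing numbers of cells. Hpgd, which breaks down prostaglandins, had 12.6 CPM with LPS and 142 CPM with PBS, in 2 of 61 and 154 of 370 cells. Hepacam2, an adhesion protein of the immunoglobulin family, had 15.8 and 119 CPM, in 4 LPS and 153 PBS cells. The protease inhibitor Timp2 had 9.45 CPM with LPS and 106 CPM with PBS. The large scaffold protein Ahnak had 239 and 1025 CPM, in 30 of 61 LPS and 350 of 370 PBS cells. Lyz1, a close copy of Lyz2, had 1 UMI in LPS members and 422 UMIs in 18 PBS cells. How reads were shared between such close copies is not stated in the sources used here, which also bears on Ifit3 and on the Cd209 family. The short transcript Mir6236 had 325 CPM with LPS and 1620 CPM with PBS, in 42 LPS and 358 PBS cells.

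**Figure D4:**
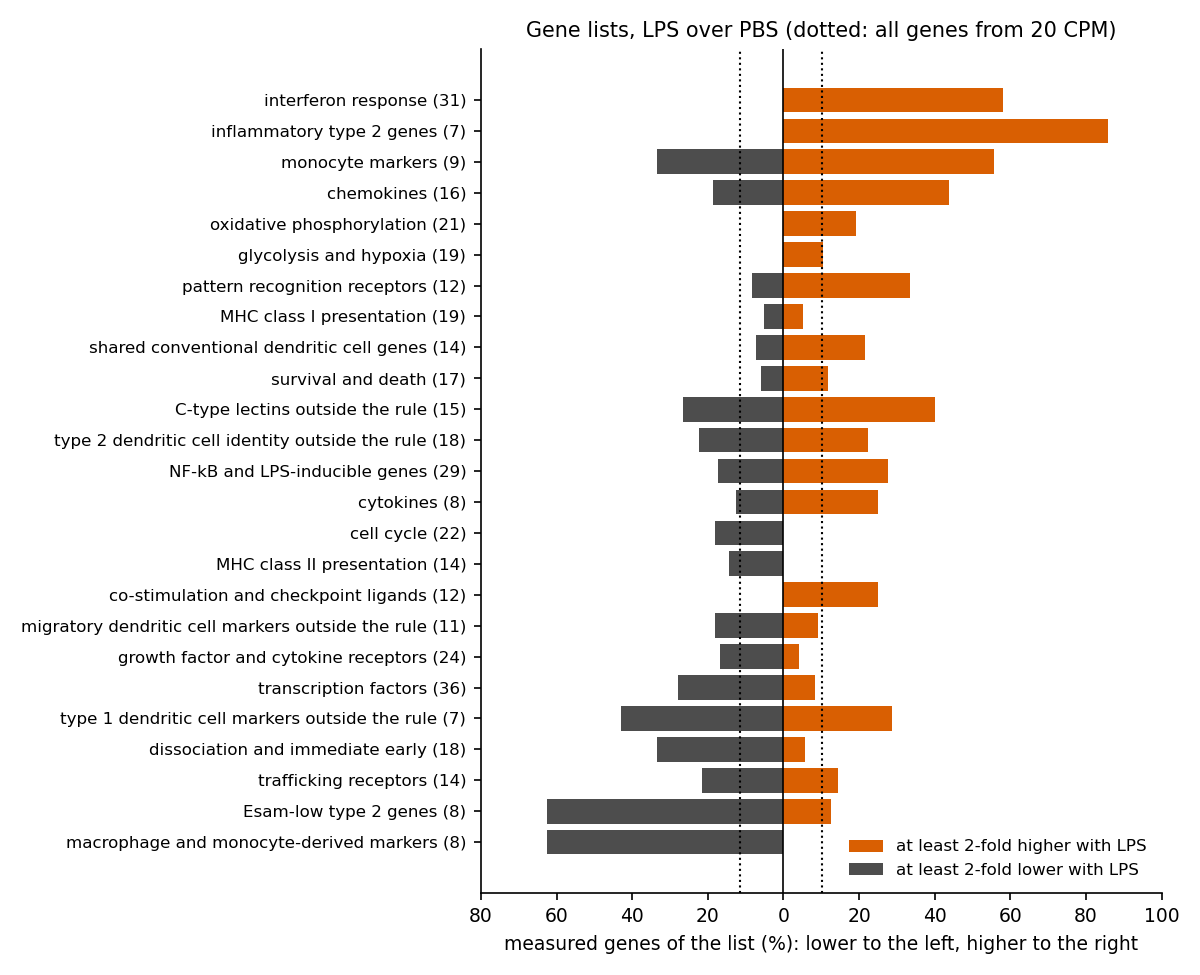
Percent of the measured genes of each list that were called higher in the LPS than in the PBS members, drawn to the right, or called lower, drawn to the left, with the number of measured genes in brackets. Dotted lines mark 10.1% and 11.5%, the shares over all 5733 genes from 20 CPM; 18 of 31 interferon response genes were called higher and 5 of 8 macrophage markers lower.

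Genes of energy metabolism and of the cell cycle were also counted. Oxidative phosphorylation genes were called higher for 4 of 21, with a median of 0.51; these were Ndufs8, Cox5a, Sdhb and Cox5b. Glycolysis genes were higher for 2 of 19, a share like the 10.1% of all genes from 20 CPM. These were Ldha at log2 1.32 and Gapdh at 1.18, and the median of the list was also 0.51. Cell cycle genes had 0 higher and 4 lower of 22, with Mki67 at 0, 78.8 and 194 CPM in LPS + Reg3g, LPS and PBS members. Cycling members made up 10.2% of LPS members and 10.9% of PBS members after thinning, with intervals that overlapped. Reg3g itself had 0 UMIs in all members. Its reported receptor Extl3 had 0, 3 and 54 UMIs in LPS + Reg3g, LPS and PBS members, or 0, 9.45 and 22.8 CPM, with an LPS over PBS interval (log2 -3.59 to 0.35) that included 0.

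The genes named for type 2 cells were then read in the other dendritic cells of the same libraries. In type 1 cells 13 of the 15 higher genes were also called higher with LPS, all but Hmox1 and Ltb, where 5.52% of 1541 genes from 100 CPM were higher. In migratory cells 13 of 15 were, all but Ccl5 and Ltb, where 7.79% of 1567 genes were higher. As said above, 9 of these 15 genes were no more frequent in LPS members than in T cells of that library. Of the 15 lower genes 9 were also lower in type 1 cells, where 3.5% of all genes were lower, and Retnla, Ccl2, Cd81, Fn1, Timp2 and Mrc1 were within 2-fold. In migratory cells 13 of them had a value, of which 6 were lower, 6 were within 2-fold and 1, Fn1, was higher, where 5.74% of all genes were lower. Intervals apart from those of type 2 cells were found in type 1 cells for 6 higher and 10 lower genes and in migratory cells for 4 and 7. Isg15 had nearly the same log2 ratio in type 2, type 1 and migratory cells, at 3.28, 3.38 and 3.53. Ly6a had 5.33 and 4.55 in type 2 and type 1 cells and 1.48 (interval 0.76 to 2.28) in migratory cells. Irf7 was lower in its ratio in type 2 cells, 2.45, than in type 1 cells, 4.23 (interval 3.85 to 4.62).

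For several genes the ratio in type 2 cells had an interval apart from that in type 1 cells. Cd81, a tetraspanin, had log2 ratios of -3.53 (interval -5.41 to -2.16) in type 2, -0.31 in type 1 and 0.12 in migratory cells, although members with C1q or monocyte genes had 349 CPM of it in the PBS library, against 70.1 CPM in the others. Cd83 had -1.42 in type 2, -0.23 in type 1 and -0.89 in migratory cells. Nr4a3 had -1.65 in type 2, 0.02 in type 1 and -1.56 in migratory cells, so that type 2 and migratory cells had overlapping intervals and type 1 cells stood apart. Il1b was higher with LPS in all 3 classes, with 1.12 in type 2 cells, 2.21 in type 1 cells and 2.44 in migratory cells. Cd86 was at -0.48 in type 2, -0.19 in type 1 and 1.37 (interval 1.01 to 1.74) in migratory cells. H2-DMb2 had a like ratio in each, at 0.79, 0.86 and 0.63.

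**Figure D5:**
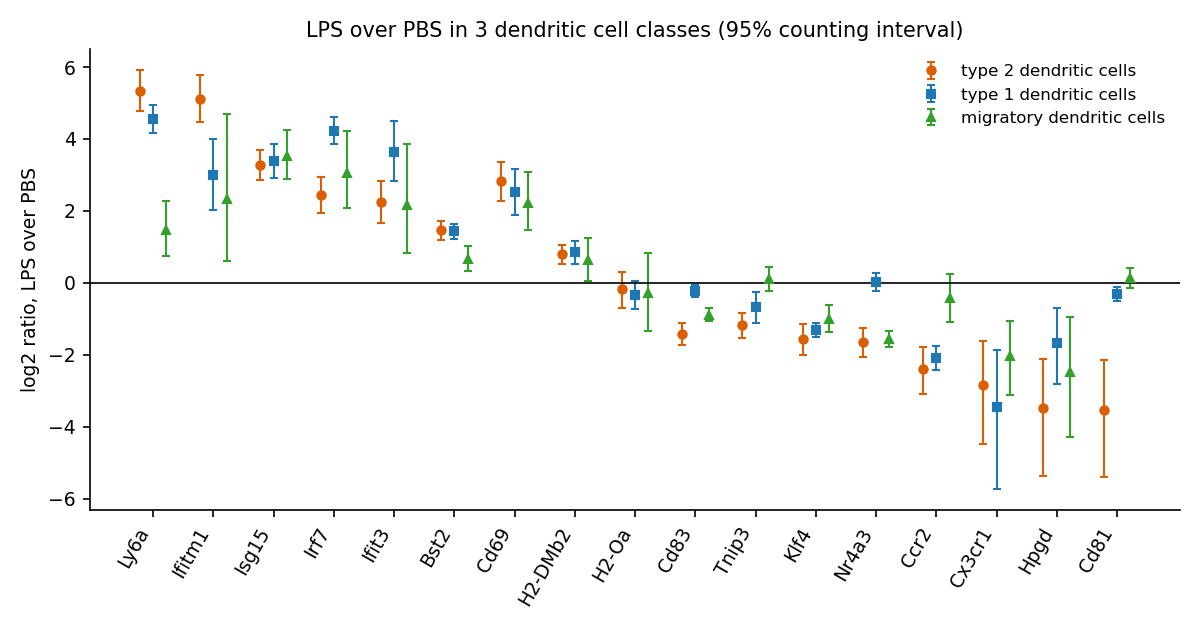
Log2 ratio of LPS over PBS of 17 genes in summed type 2, type 1 and migratory dendritic cells, with 95% counting intervals; genes without a ratio in a class have no point. Isg15 stood near 3.3 to 3.5 in each class, Ly6a was lower in migratory cells, and Cd81 was called lower in type 2 cells and was within 2-fold in the other 2 classes.

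The comparison of LPS + Reg3g with LPS rested on 6 cells and 36917 UMIs, where 1 UMI is 27.1 CPM. Of 1982 genes that reached 100 CPM in either library, 363 (18.3%) were called higher with LPS + Reg3g and 211 (10.6%) lower, but the interval excluded 0 for 307 genes only. With TMM scaling 196 were higher and 399 lower, so the direction of the split was not fixed. A gene with no UMI in the 6 cells was set at 3 counts, or 81.3 CPM, so a gene low with LPS could be called higher unseen. The 28.3% of all genes from 20 CPM that were called higher can include such genes, and 7.63% were called lower. Macrophage markers were higher for 6 of 8 with a median log2 ratio of 2.32. All 14 UMIs of C1qa, a gene of this list, were in the 2 cells with macrophage transcripts described above, 10 in one and 4 in the other. Interferon genes had 4 higher and 10 lower of 30, with a median of -0.01 in which unseen genes stood at 81.3 CPM. Of the 38 interferon genes 20 had no UMI in the 6 cells. Summed, the interferon list was lower with LPS + Reg3g, at a log2 ratio of -1.20 (interval -1.65 to -0.78). In single genes the 6 cells held 0 UMIs of Cxcl10, where LPS members had 561 CPM, 1 UMI of Isg15 and 2 UMIs of Ifitm1. All 7 UMIs of Ly6a lay in the 2 cells with macrophage transcripts. At this depth differences in gene levels between LPS + Reg3g and LPS members could not be resolved for most genes, and the difference in the share of cells is the main measurement of this pair. With at least 3 of the 4 markers that difference was no longer resolved, at 3.13-fold lower on 2 LPS + Reg3g cells and 9 LPS cells (interval 0.649 to 29.8).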

How the data were processed

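Single-cell 3′ RNA libraries of sorted lung cells were deposited as count matrices, whole-number UMI counts per gene and barcode that were not normalized. Per the submitters' processing notes they used bcl2fastq 5.0.1, Cell Ranger 9.0.1, Seurat 4.4.0 and mm10; how the authors filtered barcodes or treated doublets was not given in the sources used here. The limits on genes, UMIs and mitochondrial share took out 544 LPS + Reg3g, 1135 LPS and 343 PBS barcodes. Members and gene lists were chosen with earlier results of these data known.

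Members' counts were summed per library and divided by their total to give CPM. With 1 library per group no test was made. Intervals are exact 95% ones (Clopper-Pearson for shares, conditional binomial for ratios, Poisson for levels) and cover counting error only. A count of 0 was replaced by 3 counts per library for a bound, and such bounds entered the calls of higher and lower. Genes of the rule were left out of ratios and lists. Named genes for LPS over PBS were the 15 in each direction whose interval lay farthest from 0, among genes with at least 100 CPM, 20 UMIs and 5 cells in the higher library; genes were set aside where members held under 10% of the level of another class that could supply free RNA. From each list up to 6 genes with the largest ratios could be named, and further list genes in the text were chosen after their values were seen. The like naming for LPS + Reg3g over LPS rests on 6 cells and is not reported. Doublets were scored with Scrublet in scanpy 1.11.5, and leaving out the highest scores, at 0.4% per 1000 barcodes, was an alternative. TMM factors came from edgeR 4.0.16; other steps used Python 3.11.15, numpy 2.4.6, scipy 1.17.1 and pandas 2.3.3. The scripts were tested on simulated data. Some items are not reported here.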

Additional observations from a re-analysis of the deposited data

How the results depend on the processing

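The order of the 3 shares, LPS + Reg3g lowest and PBS highest, held as an order of values under every alternative run, and the sizes depended on the rule for members. For LPS + Reg3g over LPS the share was 3.13-fold lower with at least 3 markers, with an interval that included no difference (0.649 to 29.8), and 2.65-fold lower with at least 1 marker. With at least 3 of the 4 markers the shares of LPS + Reg3g, LPS and PBS were 0.0207%, 0.0648% and 2.30%, and 377 genes were higher and 224 lower with LPS. Without Klrd1 the LPS share was 0.216% and the PBS share 3.89%. With cells thinned before the rule these were 0.202% and 3.21%, with 354 genes higher with LPS and 115 lower with LPS + Reg3g than with LPS. The fold by which the share was lower with LPS than with PBS ran to 15.9 with thinning and 35.5 with at least 3 markers.

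The other 5 alternatives to membership were chosen after seeing the data. With at least 2 of H2-DMb2, H2-Oa, Flt3 and Zbtb46 the shares were 0.269%, 0.857% and 3.28%, and 55 genes were higher and 70 lower with LPS + Reg3g than with LPS. With at least 1 of the 4 markers they were 0.476%, 1.26% and 8.42%, with 46 higher and 47 lower. Without members positive for C1q genes the PBS share was 3.89%, without cycling members 3.85%, and without members with C1q or monocyte genes 3.28%, and the first and the last gave 574 and 578 genes higher with LPS + Reg3g than with LPS. A floor of 50 CPM gave 293 higher and 275 lower genes for LPS over PBS and 825 and 437 for LPS + Reg3g over LPS, and no floor gave 2279 and 1307, and 2478 and 437. TMM scaling gave 97 higher genes for LPS over PBS, and for LPS + Reg3g over LPS 196 higher and 399 lower, where median-of-ratios scaling gave 202 and 379. The split of LPS over PBS was 109 higher and 166 lower with median-of-ratios scaling.

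Some log2 ratios of LPS over PBS changed sign. With at least 3 markers Ltb was at -0.32 and Lyz1 at 3.70. No UMI of Lyz1 was left in those LPS cells and 3 counts stood in its place, so 3.70 is an upper bound and gives no sign. Hmox1 was at -2.93 without Klrd1. Monocyte markers had a median of -0.46 with thinning before the rule. With the 4 genes outside the rule macrophage markers had a median of 0.99, Lyz1 0.62 and Fn1 0.23, and without C1q-positive members the macrophage median was 0.00734. For these the cause was not tested. Counting each alternative, named genes stayed inside the interval first found 351 times, left it in the same direction 94 times and changed sign 5 times, as did 3 list medians beyond 2-fold. No paired analysis was possible because each group was 1 library. Depth limits LPS + Reg3g most, where 1 UMI in the members is 27.1 CPM.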
